A study of Mus musculus with 9 samples.

Results

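The comparison covers 6 RNA-seq libraries of MC38 tumours, 3 from tumours whose cancer cells carried shRNA A against Gad1 (shA) and 3 from tumours whose cancer cells carried a non-targeting control vector (NTC). These were 6 of the 9 libraries of the study, chosen by their labels, and the other 3 carried a second shRNA against Gad1, shB. MC38 is a mouse colon adenocarcinoma line, and both groups received the same lentiviral infection, puromycin selection and injection into C57BL/6 mice, with tumours taken on day 20. The shRNA was thus carried by the cancer cells, while host immune, stromal and vascular cells of the tumour kept their own Gad1. The age and sex of the mice, whether the infected cells were a pool or 1 clone, and whether the tumours grew in separate mice do not stand in the sources used here. The p-values therefore refer to the spread between libraries, which may in part be technical. The comparison asks which genes differ in a tumour when its cancer cells carry shRNA A.

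Gad1 encodes glutamate decarboxylase, which makes the neurotransmitter GABA from glutamate. GABA acts through ligand-gated ion channels and through G protein-coupled receptors, and it is broken down again by GABA transaminase, the product of Abat. A short hairpin RNA is processed in the cell to a guide that directs the silencing machinery to a matching mRNA, and the matching transcript is usually degraded.

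Values are the reads of a gene over a scaling factor of the library and are called normalized reads here. They are not divided by transcript length, so levels are compared between libraries and not between genes. A difference is the shA mean minus the NTC mean of log2(value + 0.5), tested with limma over 14114 genes that reached 20 normalized reads in at least 3 of the 6 libraries. A gene is said to rise or fall where the Benjamini-Hochberg adjusted p is 0.05 or less. Of these genes 267 had no NTC library at 20 normalized reads and entered through the shA libraries alone, and 98 had no shA library at that level. Of the 267, 183 rose. Named below from the 267 are Retnla, Ccl24, Ear2, Gbp2b, Apol7c, Pla2g2d, Icos, Klrd1, Jchain, Ifng, Siglecf, Ccr3, Retnlg, Ccl17, Gata3, Dpt, Sfrp1 and H60c. H60c was called only without shA replicate 1. These genes could enter only by being high in shA, so their p-values and calls are a description. Of the 98, 25 fell. Pax7, Slc6a7 and Rasl10b, named below, are among the 98. They could enter only by being high in NTC, so their p-values and calls are a description too. A count of list members is a description in the part that such genes make up.

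The first replicate of each group stood apart from the other 2, and shA replicate 1 did so most. The libraries held 18373748 to 21071801 assigned reads in NTC and 21087628 to 24918174 in shA. On the first principal component, with 70.7% of the variance, the groups were separate, and the second, with 17.5%, set both first replicates against the others. The root mean square log2 difference of a library from the other 2 of its group was 0.841 for shA replicate 1 and 0.660 for NTC replicate 1, against 0.417 to 0.537 in the other 4. In shA replicate 1 mitochondrially encoded genes took 6.60% of reads, against 0.491% to 1.04% in the other 5 libraries, and 653 listed genes were at 0, against 25 to 422. A log2 difference with all 6 libraries is therefore followed, in square brackets or in words, by its value without shA replicate 1, and counts of called list members are given both ways. A gene named as rising or falling passed both ways unless a change in its call is stated. The part of this library's composition in a result was not tested.

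Gad1 was lower in every shA library than in any NTC library. It read 281, 265 and 326 in NTC replicates 1 to 3 and 13.1, 23.4 and 50.0 in shA replicates 1 to 3. The NTC mean was 291 ± 31.8 (SD, n = 3) and the shA mean 28.8 ± 19.1 (SD, n = 3). The log2 difference was -3.51 (SE 0.47, adjusted p = 0.00774) with all 6 libraries and -3.06 (adjusted p = 0.0063) without shA replicate 1. Its call was kept when any 1 library was left out, with adjusted p of at most 0.0301. An exact two-sided permutation test gave p = 0.1, the smallest value that 3 against 3 libraries allow. The lowest Gad1 level was in shA replicate 1 and the highest of the shA group in replicate 3.

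Over all genes, 1691 rose, which is 12% of those tested, and 1246 fell, which is 8.83%. Without shA replicate 1, 1761 rose (12.5%) and 1429 fell (10.1%). The calls were largely shared, since 1477 rising genes and 1122 falling genes passed both ways. These shared genes were 87.3% of the rising and 90.0% of the falling genes called with all 6 libraries. They were 83.9% and 78.5% of those called without shA replicate 1. Rising genes changed by more, with a median log2 difference of 1.76 against -0.69 for falling genes, and 707 rose at least 4-fold while 64 fell at least 4-fold. The median log2 difference of all genes tested was -0.01. Counts of list members below stand against the 12% of all genes that rose and the 8.83% that fell. In all 1691 rising and all 1246 falling genes the shA and NTC libraries did not overlap. Over all genes tested, 24.0% had all shA libraries higher and 24.6% lower, so separate groups add no support to a call. Counts fell when an NTC library or shA replicate 3 was left out, to 887 rising and 348 falling genes without NTC replicate 1, 812 and 284 without NTC replicate 2, 926 and 319 without NTC replicate 3, and 961 and 614 without shA replicate 3. There were 630 rising and 231 falling genes called in all 6 of these smaller comparisons.

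**Figure D1:**
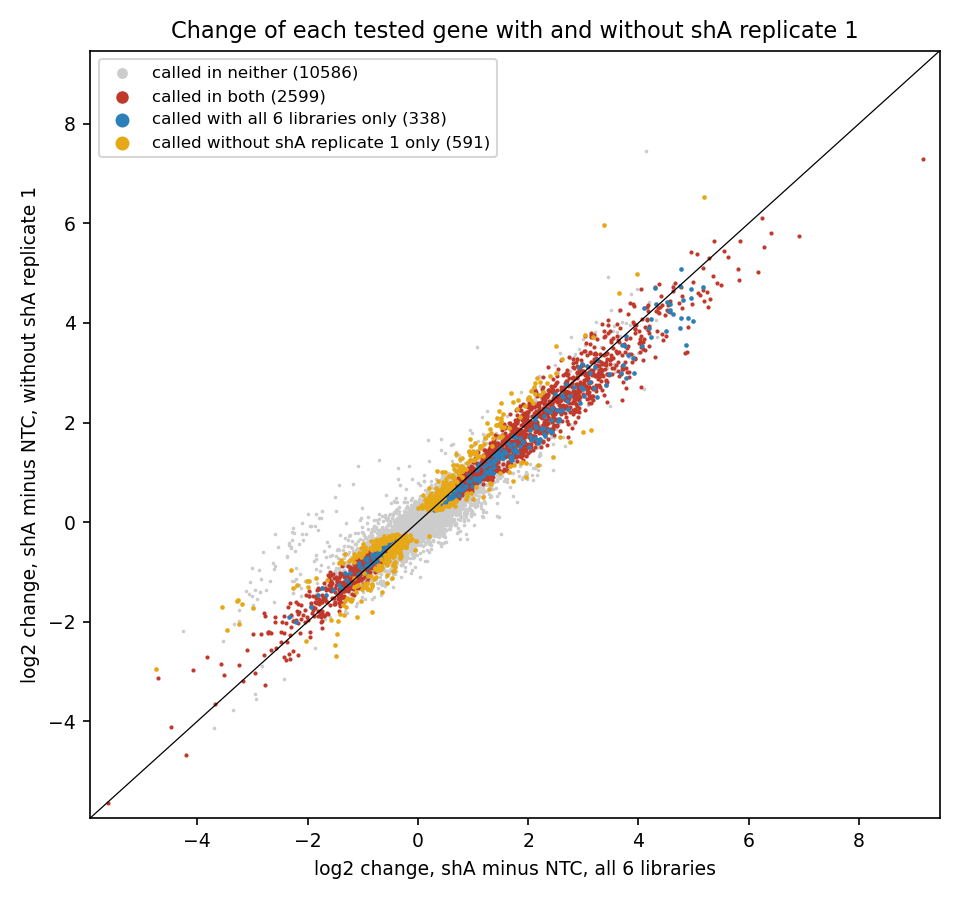
Each point is 1 of the 14114 genes tested, with its log2 difference (shA minus NTC) over all 6 libraries on the x axis and without shA replicate 1 on the y axis. Colours give the comparison in which the gene was called, the line marks equal values, and Retnla at 9.16 and 7.28 is the point furthest right.

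Retnla had the largest rise of all genes named by the rule. Retnla, a secreted product of alternatively activated macrophages, read 0, 5.02 and 7.68 in NTC replicates 1 to 3 and 21977, 386 and 502 in shA replicates 1 to 3. All shA libraries were above all NTC libraries, but shA replicate 1 was 43.8 times the next highest library. The log2 difference of Retnla was 9.16 (SE 1.68, adjusted p = 0.0143) with all 6 libraries and 7.28 (adjusted p = 0.0106) without shA replicate 1. Ccl24, a chemokine that attracts eosinophils, read 0, 19.1 and 8.64 in NTC and 2729, 192 and 298 in shA, with a log2 difference of 6.91 [5.74]. Ear2, a ribonuclease gene of eosinophils and macrophages with near-identical family members, read 3.38, 19.1 and 15.4 in NTC and 3648, 264 and 458 in shA. The 3 genes share one shape, with the shA libraries above NTC and replicate 1 far above its group.

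Gbp2b, an interferon-induced GTPase with close copies such as Gbp2, had a different shape, since its shA libraries lay close together. It read 0, 15.1 and 6.72 in NTC and 352, 278 and 251 in shA, a log2 difference of 6.25 [6.11] (adjusted p = 0.0145). H2-M2, a non-classical MHC class I gene, read 4.51, 40.2 and 42.2 in NTC and 1558, 1113 and 941 in shA, with 5.84 [5.64]. Pdcd1lg2, which encodes the PD-1 ligand PD-L2, read 1.13, 7.03 and 23.0 in NTC and 503, 302 and 228 in shA, with 5.63 [5.31] (adjusted p = 0.0105). The other rising genes named by the same rule were Gimap3, Ltb, Apol7c, Car3, Pla2g2d and Dnase1l3. Their log2 differences were 5.38 to 6.29, and 4.75 to 5.64 without shA replicate 1. Ltb encodes lymphotoxin beta, Dnase1l3 a secreted DNase and Car3 a carbonic anhydrase abundant in muscle and fat. Calls lost when 1 library was left out were Gimap3 without NTC replicate 2 or shA replicate 3 (adjusted p up to 0.0595) and Ltb without NTC replicate 2 (0.0555). Car3 was lost without NTC replicate 1 or 3 (up to 0.0657), and Dnase1l3 without NTC replicate 2 or shA replicate 2 or 3 (up to 0.0653).

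**Figure D2:**
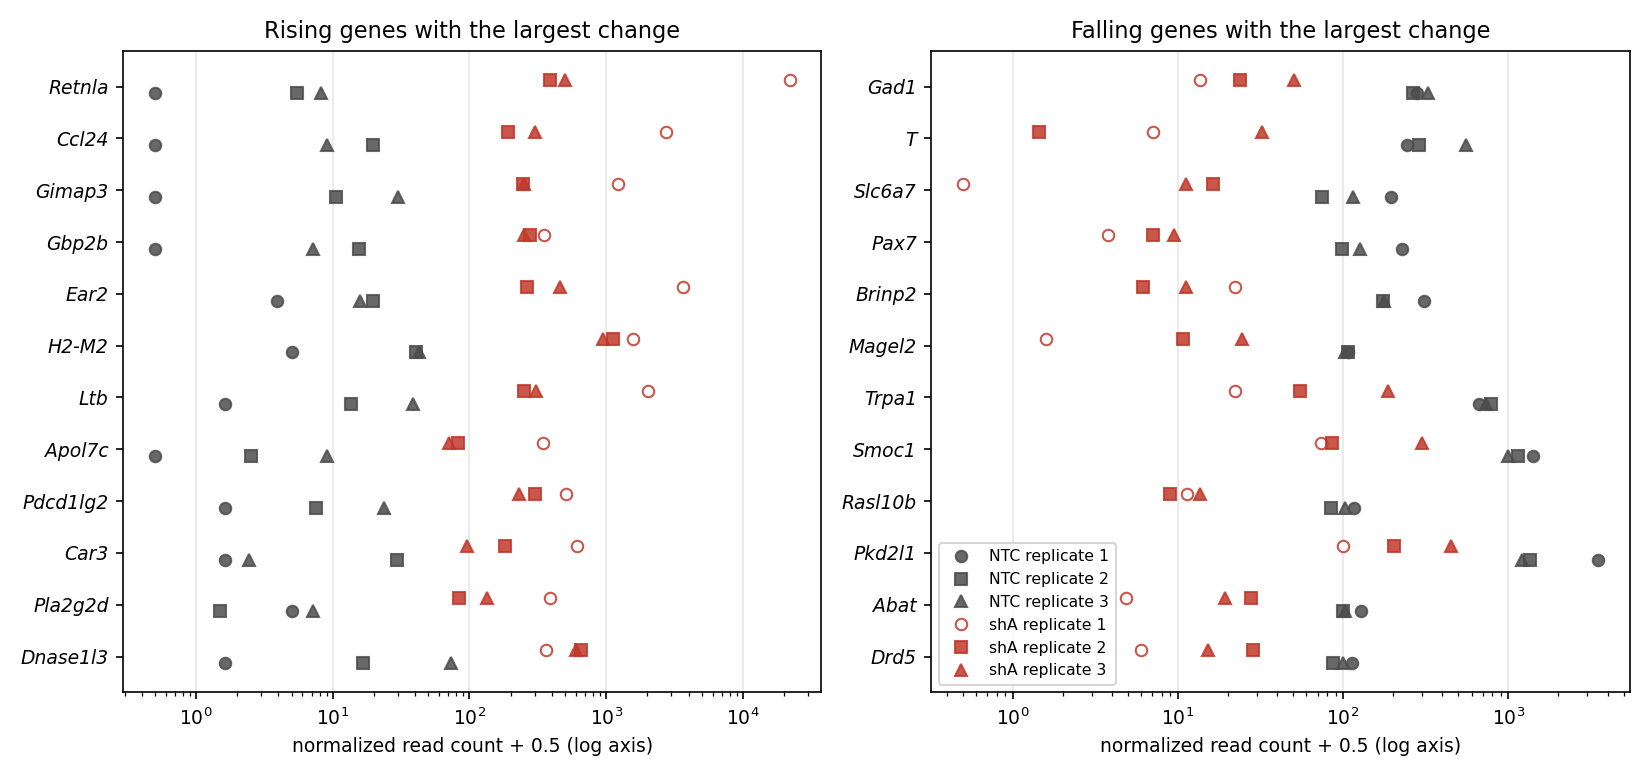
Normalized reads plus 0.5, on a log axis, of the 12 rising and the 12 falling genes of largest change that were called with all 6 libraries and without shA replicate 1. Each marker is 1 library, with NTC grey and shA red, and the open circle is shA replicate 1; the groups do not overlap for any of these genes, as the naming rule requires, and the open circle of Retnla lies at 21977 normalized reads.

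The falling genes with the largest change included genes of development, ion transport and neurotransmitter handling. T, the transcription factor brachyury, read 243, 289 and 555 in NTC replicates 1 to 3 and 6.54, 0.935 and 32.0 in shA replicates 1 to 3, a log2 difference of -5.62 (SE 1.03, adjusted p = 0.0143) with all 6 libraries and -5.64 (adjusted p = 0.021) without shA replicate 1. Pax7, a transcription factor of muscle precursors and neural crest, read 228, 97.4 and 126 in NTC and 3.27, 6.54 and 9.02 in shA, with -4.48 [-4.11] (adjusted p = 0.00696). In T, shA replicate 2 was below the detection limit of 3 reads and shA replicate 3 the highest of its group. Pkd2l1, a cation channel subunit, read 3500.2, 1356 and 1206 in NTC and 99.1, 204 and 450.0 in shA, and Smoc1, a secreted matrix protein, 1407, 1140.3 and 998 in NTC and 73.0, 85.1 and 302 in shA. Their log2 differences were -3.10 [-2.56] and -3.24 [-2.86]. The groups were apart in each, with shA replicate 3 the least reduced in Pkd2l1 and Smoc1. Brinp2, Rasl10b, Trpa1, Magel2, Slc6a7 and Drd5 had log2 differences of -4.72 to -2.85, and of -4.68 to -2.25 without shA replicate 1. Trpa1 encodes an irritant-gated channel, Slc6a7 a proline transporter and Drd5 a dopamine receptor. Of these, Brinp2 and Rasl10b stayed called when any 1 library was left out, and Trpa1 was lost only without NTC replicate 2 (adjusted p = 0.0519). Magel2 and Drd5 were lost without any 1 of the NTC libraries (up to 0.0899 and 0.0658), and Slc6a7 without any 1 of them or shA replicate 3 (up to 0.123).

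Among genes around GABA and glutamate, Gad1 and Abat had the largest falls. Of 24 listed genes 19 had values and 18 were tested, and 5 fell and 0 rose, with a median log2 difference of -0.31. Without shA replicate 1, 6 fell and 1 rose. Over all genes tested 8.83% fell, or 10.1% without shA replicate 1. Abat read 128, 99.4 and 102 in NTC and 4.36, 27.1 and 18.9 in shA, and its log2 difference was -3.00 (SE 0.65, adjusted p = 0.0217) with all 6 libraries and -2.25 (adjusted p = 0.00804) without shA replicate 1. Every shA library was below every NTC library for Abat, so transcripts of an enzyme that makes GABA and of the one that breaks it down were both lower. Gabbr1, a GABA-B receptor subunit, read 385, 351 and 409.7 in NTC and 203, 208 and 224 in shA and fell, with -0.85 [-0.82]. Slc7a11, the cystine and glutamate exchanger, fell with -1.22 [-1.21], and Slc38a1, a glutamine transporter, with -0.34 [-0.31]. Gad2, the other glutamate decarboxylase, read 134, 172 and 124 in NTC and 83.9, 73.8 and 259.8 in shA and its groups overlapped (adjusted p = 0.696). Gad1 alone of the 5 stayed called when any 1 library was left out. Abat was lost without any 1 of the NTC libraries (adjusted p up to 0.0756), Gabbr1 without NTC replicate 3 (0.0639) and Slc7a11 without NTC replicate 2 (0.0516). Slc38a1 was lost without any 1 NTC library or shA replicate 2 or 3 (up to 0.125), and the count of falling genes was then 2 without NTC replicate 2 or 3 and 3 without NTC replicate 1.

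T cell genes were higher in shA tumours. Of 24 listed, 23 were tested, and 21 rose and 1 fell, with a median log2 difference of 3.88, where 12% of all genes tested rose and their median was -0.01. Without shA replicate 1, 20 rose and 1 fell, and the median was 3.23. In bulk tumour RNA more cells of a type and more RNA per cell cannot be told apart. Cd8b1, the beta chain of CD8, read 11.3, 25.1 and 28.8 in NTC and 465, 211 and 159.8 in shA. Cd4 read 5.63, 16.1 and 28.8 in NTC and 557, 166 and 153 in shA, and Icos, a costimulatory receptor, 1.13, 5.02 and 9.60 in NTC and 106, 121 and 65.6 in shA. For Cd4 and Cd8b1 the highest library was shA replicate 1, for Icos it was shA replicate 2, and in all 3 genes the groups were apart. The log2 differences of Cd8b1, Cd4 and Icos were 3.60 [3.16], 4.08 [3.48] and 4.40 [4.32]. Cd8b1, Cd4, Icos, Cd2 and Zap70 stayed called when any 1 library was left out. The falling gene was Tcf7, a transcription factor of naive T cells that is also a Wnt target, at 4162, 3790.3 and 4003 in NTC and 2582, 3048 and 2598 in shA; in all shA libraries it was below NTC. Its call did not hold without NTC replicate 3 (adjusted p = 0.051). The count of rising T cell genes was 13 without NTC replicate 1 and 9 without NTC replicate 2.

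Genes of cytotoxic lymphocytes and of inhibitory receptors were higher in shA tumours too. Of 17 cytotoxic genes 13 were tested and 10 rose, with a median of 3.78, and without shA replicate 1 the count was 5 and the median 3.74. Gzma, which encodes granzyme A, read 5.63, 20.1 and 40.3 in NTC and 246, 249.6 and 471 in shA, a log2 difference of 4.15 [4.31] (adjusted p = 0.0107). Cxcr6, a chemokine receptor of effector T cells, read 11.3, 18.1 and 34.5 in NTC and 235, 278 and 222 in shA, with 3.63 [3.66]. Nkg7, a granule protein, read 2.25, 16.1 and 51.8 in NTC and 324, 353 and 311 in shA, with 4.62 [4.63], and its call was lost without NTC replicate 2 or shA replicate 3 (adjusted p up to 0.0526). Of 16 genes for inhibitory receptors or markers of regulatory T cells 15 were tested and 11 rose, and 12 without shA replicate 1. Lag3, an inhibitory receptor, read 64.2, 63.2 and 96.9 in NTC and 416, 383 and 371 in shA, and Entpd1, the ectonucleotidase CD39, 148, 144 and 197 in NTC and 909.5, 924 and 779.5 in shA. Their log2 differences were 2.40 [2.35] and 2.43 [2.40]. Of 11 NK cell genes 3 were tested, Klrc1, Klrd1 and Klrk1, and all 3 rose, by 3.61 [3.97] to 4.76 [4.74]. None of these 3 was called without any 1 of NTC replicate 2, shA replicate 2 and shA replicate 3, and Klrd1 also not without shA replicate 1 (adjusted p up to 0.0977). Klrd1 could enter only by being high in shA, so its part of the NK cell count is a description. The cytotoxic count was 4 without NTC replicate 2, 5 without shA replicate 2 and 4 without shA replicate 3, and the inhibitory count was 7 without shA replicate 3.

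Macrophage genes rose by a similar amount with and without shA replicate 1. Of 22 listed, 19 were tested and 17 rose in both comparisons, with medians of 2.58 and 2.35, and 14 to 17 rose when any 1 library was left out. Apoe, a lipid carrier of macrophages, read 3882, 4904 and 4200.1 in NTC and 21108, 27718 and 26379 in shA, a log2 difference of 2.53 [2.65] (SE 0.14, adjusted p = 0.00283). C1qc, a chain of complement C1q, read 232, 516 and 599.7 in NTC and 5259, 3864 and 3685 in shA, with 3.34 [3.18]. Csf1r, the receptor for the macrophage growth factor CSF-1, read 101, 319 and 301 in NTC and 2184, 1725 and 1559.9 in shA, with 3.07 [2.94]. The groups were far apart in each, with the lowest shA library over 4 times the highest NTC library for all 3 genes. Lyz2, which encodes lysozyme, was lower in shA replicate 1 than in the rest of its group, at 1248, 2486 and 2243 in NTC and 8835, 16982 and 16024 in shA. Mertk, a phagocytic receptor, and Cd14, a co-receptor for bacterial lipopolysaccharide, did not pass, at 0.29 [0.47] and 1.37 [1.49].

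Genes of alternative activation rose as well, and all 13 tested were higher in shA replicate 1 than in the mean of shA replicates 2 and 3. Of 14 listed, 13 were tested and 11 rose in both comparisons, with medians of 3.35 and 2.65. Retnla, Ear2 and Ccl17, which rose, could enter only by being high in shA, so that part of the count is a description. Ccl17, a chemokine of dendritic cells and macrophages, read 1.13, 15.1 and 6.72 in NTC and 588, 94.4 and 159.8 in shA, and Chil3, a chitinase-like protein, 10.1, 39.1 and 39.3 in NTC and 5487, 140.2 and 512 in shA. Il4ra, the receptor subunit for IL-4 and IL-13, read 333, 448 and 343 in NTC and 1299.5, 863 and 731 in shA. In all 3 genes shA replicate 1 was highest, and the groups were apart, as in every called gene. Arg1, which encodes arginase 1, read 600.5, 1017 and 861 in NTC and 5970.3, 1221 and 1083 in shA and did not pass (adjusted p = 0.158). The call of Chil3 was lost without any 1 NTC library or shA replicate 3 (adjusted p up to 0.112). The count of rising genes was 6 without NTC replicate 1 and 7 without NTC replicate 3.

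Siglecf and Ccr3, markers of eosinophils, were at or near 0 in NTC tumours and higher in every shA tumour. Siglecf, an eosinophil receptor, read 2.25, 4.02 and 1.92 in NTC and 365, 50.5 and 42.6 in shA, a log2 difference of 4.90 (SE 0.87, adjusted p = 0.0132) with all 6 libraries and 3.91 (adjusted p = 0.0101) without shA replicate 1. Ccr3, the eotaxin receptor, read 0, 4.02 and 3.84 in NTC and 380.2, 21.5 and 28.7 in shA, with 4.87 [3.57], and did not pass without shA replicate 1 (adjusted p = 0.0633). It was also lost without any 1 NTC library or shA replicate 3 (up to 0.11). Of 12 listed eosinophil genes 7 had values, 4 were tested and 3 rose, and 2 without shA replicate 1. The 3 that rose, Ear2, Siglecf and Ccr3, had no NTC library at 20 normalized reads. They could enter only by being high in shA, so this count and their p-values are a description. Rnase2a, an eosinophil ribonuclease not tested because 1 shA library was under 20, was listed at 0 in all NTC libraries and at 2569, 15.9 and 68.9 in shA. Alox15, a lipoxygenase of eosinophils and macrophages, read 295, 432 and 935 in NTC and 1518, 792 and 939 in shA, its groups overlapped, and it did not pass at 1.08 [0.81]. Mast cell genes mostly ran the other way within the shA group, though 2 of 9 were higher in shA replicate 1 than in the mean of shA replicates 2 and 3. Of 9 tested, 3 rose with all 6 libraries and 7 without shA replicate 1, with medians of 1.86 and 2.33. Cpa3, a mast cell protease, read 78.9, 62.2 and 143 in NTC and 74.1, 430.0 and 512 in shA, so shA replicate 1 lay within the NTC range. Kit, the stem cell factor receptor, read 155, 272 and 362 in NTC and 742, 1154 and 1426 in shA and rose in both. Mcpt4 and Tpsb2, mast cell proteases, rose by 1.86 [2.33] and 1.67 [2.17]. Their calls were lost without NTC replicate 1 or 2 or shA replicate 2 or 3, and that of Tpsb2 also without NTC replicate 3 (adjusted p up to 0.135), which left 1 rising mast cell gene without NTC replicate 1 or 2 or shA replicate 2 or 3.

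Dendritic cell genes rose in part, and neutrophil genes mostly did not pass. Of 16 dendritic cell genes 14 were tested, and 8 rose and 1 fell, or 9 and 1 without shA replicate 1. Itgax, which encodes CD11c, read 77.7, 219.8 and 294 in NTC and 2603, 1649 and 1626 in shA, and Clec9a, which cross-presenting dendritic cells carry, 4.51, 5.02 and 22.1 in NTC and 119, 146 and 123 in shA. Their log2 differences were 3.48 [3.25] and 3.92 [3.98]. The falling member was Cacnb3, a calcium channel subunit, and no member fell without any 1 NTC library or shA replicate 2 or 3. The rising count was 5 without NTC replicate 1. Of 15 neutrophil genes 6 were tested and Retnlg, a resistin-like gene of neutrophils, was the 1 that rose, at 3.38, 14.1 and 11.5 in NTC and 2030.4, 66.4 and 129.5 in shA. Its call was lost without any 1 NTC library or shA replicate 3 (adjusted p up to 0.105). Retnlg could enter only by being high in shA, so the count of 1 is a description. Without shA replicate 1 the count was 3. S100a9, a calprotectin subunit of neutrophils, read 22.5, 26.1 and 8.64 in NTC and 4.36, 41.1 and 0.820 in shA, and its groups overlapped.

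MHC class II genes rose together in all shA libraries. Of 12 listed, 11 were tested and 10 rose in both comparisons, with medians of 3.93 and 3.80, and 7 to 10 rose when any 1 library was left out. H2-Ab1, a beta chain of the antigen-presenting molecule, read 267, 1261 and 1792 in NTC and 22596, 15766 and 15117 in shA, a log2 difference of 4.37 (SE 0.64, adjusted p = 0.00899) with all 6 libraries and 4.19 (adjusted p = 0.0133) without shA replicate 1. Cd74, the invariant chain that guides class II molecules through the cell, read 526, 2948 and 3686 in NTC and 40429.7, 34969 and 32790.1 in shA, with 4.33 [4.24]. Ciita, the class II transactivator, read 12.4, 75.3 and 148 in NTC and 481, 665 and 706 in shA, with 3.54 [3.71], and lost its call without NTC replicate 2 or shA replicate 2 or 3 (adjusted p up to 0.0667). The lowest NTC library was replicate 1 in each of these genes. Of 15 class I presentation genes, all tested, 11 rose in both comparisons, with medians of 2.18 and 2.27. B2m, the shared light chain, read 2695, 7748 and 7967 in NTC and 23653, 28257 and 29369 in shA, with 2.29 [2.39], and Tap2, a peptide transporter subunit, 299.7, 796 and 974 in NTC and 2629.5, 3038 and 3382 in shA, with 2.29 [2.38]. The class I count was 7 without NTC replicate 2 or shA replicate 2 and 6 without shA replicate 3. MHC genes have close copies, so reads could be split between them.

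Interferon-stimulated genes rose, and all 25 genes of the type I response were lower in shA replicate 1 than in the mean of shA replicates 2 and 3. Interferons act through STAT and IRF transcription factors to induce a shared set of antiviral and antigen-presenting genes. Of 25 genes of the type I interferon response, all tested, 21 rose with a median of 2.31, and 24 rose without shA replicate 1 with a median of 2.61. Of 27 interferon-gamma response genes 26 were tested and 13 rose with a median of 2.88, and 15 without shA replicate 1 with 3.20. Many of these genes carry in their promoter an interferon-stimulated response element, which these factors bind. The 250 bases before the start site, from RefSeq on GRCm38.p6, are shown for the 4 called genes of both lists with the smallest p whose window holds that element, searched on both strands as GAAA, any 2 bases and GAAA. Capitals mark every match, and matches that overlap run together.
Socs1: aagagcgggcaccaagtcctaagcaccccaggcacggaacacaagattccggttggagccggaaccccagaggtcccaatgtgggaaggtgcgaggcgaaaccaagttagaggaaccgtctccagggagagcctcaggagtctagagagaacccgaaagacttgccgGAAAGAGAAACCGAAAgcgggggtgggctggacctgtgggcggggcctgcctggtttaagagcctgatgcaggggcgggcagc
Bst2: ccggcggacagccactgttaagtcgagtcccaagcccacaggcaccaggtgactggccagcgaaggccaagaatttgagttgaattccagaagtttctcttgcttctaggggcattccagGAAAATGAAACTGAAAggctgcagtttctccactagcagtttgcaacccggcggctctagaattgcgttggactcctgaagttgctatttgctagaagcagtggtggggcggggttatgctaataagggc
Isg15: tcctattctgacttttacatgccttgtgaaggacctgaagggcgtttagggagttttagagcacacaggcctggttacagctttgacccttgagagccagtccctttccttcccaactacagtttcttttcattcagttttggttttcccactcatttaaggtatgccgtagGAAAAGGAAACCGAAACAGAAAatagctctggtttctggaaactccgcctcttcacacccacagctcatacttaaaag
Ifit1: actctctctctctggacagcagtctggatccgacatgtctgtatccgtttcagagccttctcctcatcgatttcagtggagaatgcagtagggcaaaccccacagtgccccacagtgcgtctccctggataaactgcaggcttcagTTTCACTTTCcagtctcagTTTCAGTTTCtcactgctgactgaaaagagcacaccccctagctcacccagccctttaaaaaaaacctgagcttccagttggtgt
The Socs1 window is chr16:10785537-10785786 on the minus strand. The Bst2 window is chr8:71537473-71537722 on the minus strand. That of Isg15 is chr4:156200819-156201068 on the minus strand. That of Ifit1 is chr19:34640639-34640888 on the plus strand. The matches lie 83 to 68 bases before the start site in Socs1 and 130 to 115 in Bst2. They lie 78 to 57 bases before it in Isg15, and in Ifit1 they read as the reverse complement at 104 to 95 and 85 to 76. Of 10652 tested genes with a window in the table, 356 (3.34%) held the motif, as did 8 of 19 genes of the type I list and 10 of 18 of the interferon-gamma list. Of the 356, 96 rose and 19 fell, with a median log2 difference of 0.17 against -0.02 for the 10296 without it. Within the lists the split was otherwise: in the type I list 7 of 8 genes with the motif and 9 of 11 without it rose, with medians of 2.25 and 2.62. In the interferon-gamma list 2 of 10 with it and 6 of 8 without it rose, with medians of 2.49 and 2.69. A match is a description of these letters and was not tested as a site.

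Among the genes printed, Ifit1, an inhibitor of foreign RNA, read 39.4, 167 and 213 in NTC replicates 1 to 3 and 773, 1259 and 2039 in shA replicates 1 to 3. Isg15, a ubiquitin-like modifier, read 139, 274 and 473 in NTC and 1133, 1989 and 3239 in shA, and Bst2, which tethers viruses to the cell surface, 484, 1186 and 1658 in NTC and 5001, 5676 and 7306 in shA. In each, the 3 shA libraries were above NTC and replicate 1 was the lowest of them. The log2 difference of Ifit1 was 3.48 (SE 0.64, adjusted p = 0.0143) with all 6 libraries and 3.83 (adjusted p = 0.0141) without shA replicate 1. Socs1, a feedback inhibitor of interferon signalling, did not share that order, at 183, 163 and 263 in NTC and 862, 852 and 661 in shA. Irf7, a transcription factor that amplifies the type I response, read 199, 345 and 461 in NTC and 1517, 2060.1 and 2975 in shA, with 2.73 [2.97]. Gbp2, an interferon-induced GTPase, read 106, 1620.1 and 3088 in NTC and 2576, 13965 and 12338 in shA, so that shA replicate 1 lay inside the NTC range and the gene did not pass (adjusted p = 0.0994). The same held for Irgm1, an autophagy-linked GTPase, at 482, 2546 and 4059 in NTC and 3493, 11918 and 12171 in shA, which passed without shA replicate 1 at 2.82 (adjusted p = 0.0488). Cxcl9 and Cxcl10, chemokines for the chemokine receptor CXCR3 of T cells, passed in neither comparison. Without shA replicate 1 they were at 3.55 and 4.26 (adjusted p = 0.0548 and 0.0564). NTC replicate 1 was the lowest library for both of them, at 84.5 and 6.76 normalized reads. Ifng itself read 0, 2.01 and 16.3 in NTC and 35.9, 44.9 and 63.9 in shA, and its call was lost without any 1 library other than NTC replicate 3 (adjusted p up to 0.126). The type I count was 9 without NTC replicate 2, 10 without shA replicate 2 and 7 without shA replicate 3, and the interferon-gamma count 6, 8 and 6.

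**Figure D3:**
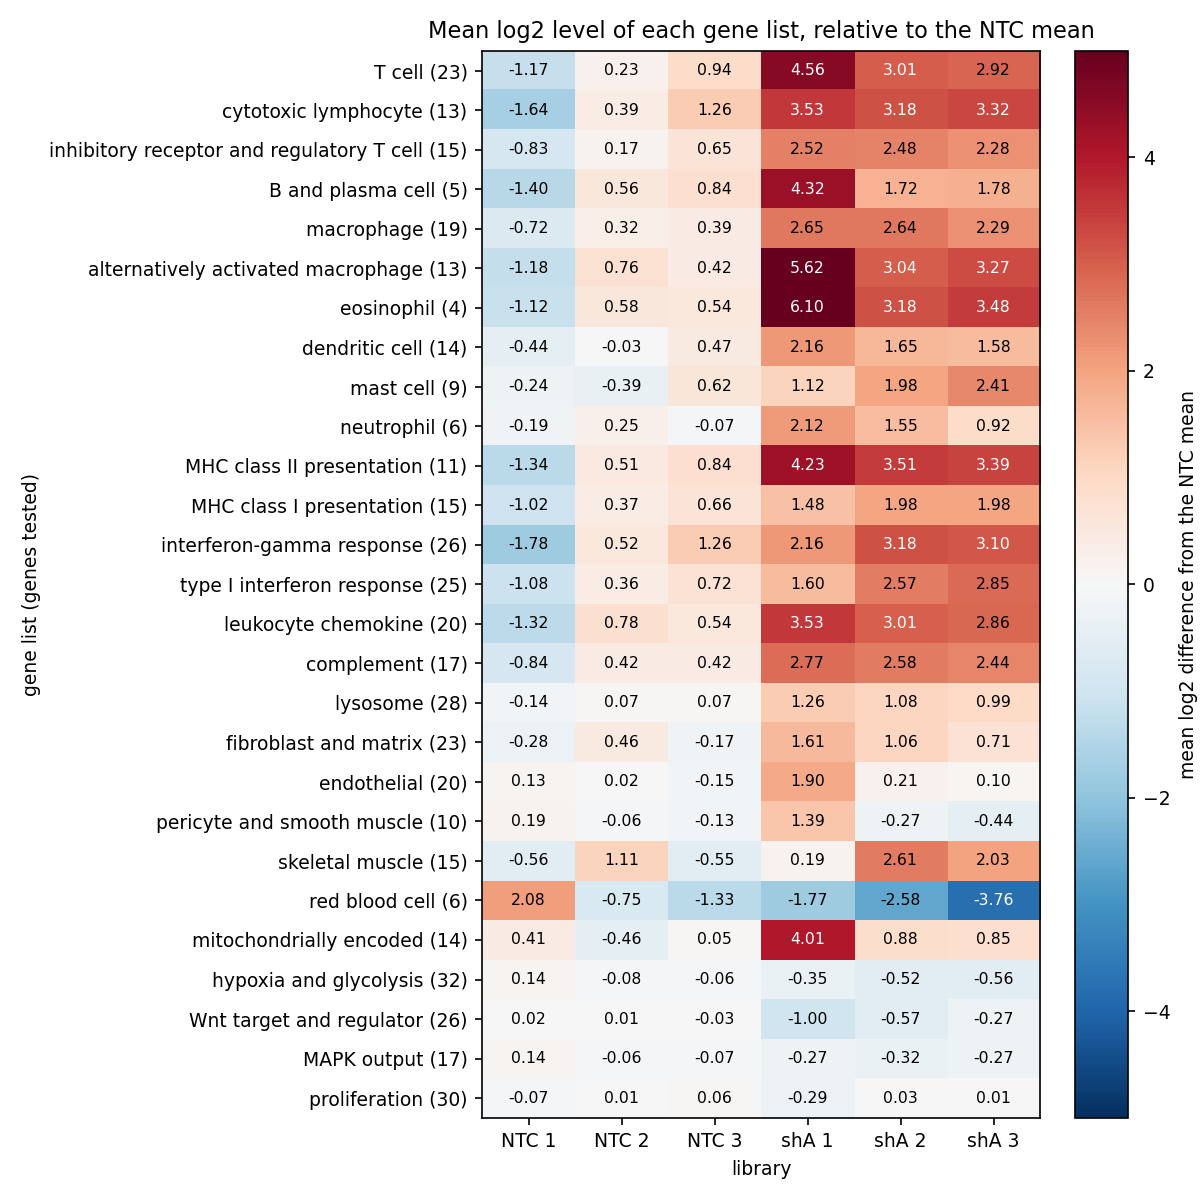
Mean over the tested genes of each list of log2(value + 0.5) minus the NTC mean of the gene, in each of the 6 libraries, with the value printed in each cell and the number of genes tested in brackets. Red is above and blue below the NTC mean; the T cell score is 4.56, 3.01 and 2.92 in shA replicates 1 to 3, and the interferon-gamma score 2.16, 3.18 and 3.10.

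Chemokine, complement and lysosome genes were higher in shA tumours. Of 25 leukocyte chemokines 20 were tested and 15 rose, and 12 without shA replicate 1. Cxcl16, the ligand of CXCR6, had the least spread, at 243, 248 and 335 in NTC and 1553, 1483 and 1453 in shA, a log2 difference of 2.46 [2.43] (SE 0.15, adjusted p = 0.00344). Ccl8, a monocyte and T cell attractant, read 14.6, 127 and 110.4 in NTC and 2505, 1435 and 1122 in shA, and Ccl5, a T cell attractant made by cytotoxic cells, 6.76, 49.2 and 55.7 in NTC and 1091, 804 and 737 in shA. In both, every shA library was at least 8 times the highest NTC library. Of 19 complement genes 17 were tested and 14 rose, and 12 without shA replicate 1. C3, the central complement component, read 42.8, 121 and 154 in NTC and 3688, 3212 and 3200.2 in shA, with 5.17 [5.10], and C1s1, a C1 protease, 23.7, 53.2 and 43.2 in NTC and 296, 451 and 348 in shA, with 3.23 [3.37]. Of 28 lysosome genes, all tested, 18 rose with a median of 0.74, and 21 rose and 1 fell without shA replicate 1. Ctsd, a lysosomal protease, read 5246, 5178 and 4749.9 in NTC and 11265, 10244 and 11002 in shA, with 1.10 [1.07], and Psap, a sphingolipid activator, 8465, 10438 and 11729.9 in NTC and 48681, 40422 and 35385 in shA, with 2.02 [1.90]. Atp6v0d2, a subunit of the proton pump in macrophages and osteoclasts, had a log2 difference of 3.53 [3.31].

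Genes of glycolysis and the hypoxia response were lower in shA tumours. Of 32 listed, all tested, 16 fell and 0 rose, with a median log2 difference of -0.50. Over all genes tested 8.83% fell, or 10.1% without shA replicate 1, and the median was -0.01. Without shA replicate 1, 23 fell and 0 rose, with the same median of -0.50. The hypoxia-inducible factors bind a short core, searched here as ACGTG on both strands, and the 250 bases before the start of the 2 called genes of the list with the smallest p that hold it are shown with matches in capitals.
Slc16a3: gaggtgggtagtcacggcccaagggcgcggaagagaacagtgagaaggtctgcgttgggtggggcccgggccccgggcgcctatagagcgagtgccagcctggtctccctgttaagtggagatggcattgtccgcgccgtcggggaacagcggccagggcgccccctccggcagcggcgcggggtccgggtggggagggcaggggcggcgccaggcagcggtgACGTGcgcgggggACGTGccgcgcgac
Hk2: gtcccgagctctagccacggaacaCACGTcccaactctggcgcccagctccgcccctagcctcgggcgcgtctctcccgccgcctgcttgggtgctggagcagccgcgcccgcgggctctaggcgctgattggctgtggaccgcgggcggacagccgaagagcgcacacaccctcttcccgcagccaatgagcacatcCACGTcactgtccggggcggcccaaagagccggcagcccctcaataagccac
The Slc16a3 window is chr11:120948817-120949066 on the plus strand, and that of Hk2 is chr6:82774455-82774704 on the minus strand, both from RefSeq on GRCm38.p6. The core is present 2 times in each, at 27 to 23 and 14 to 10 bases before the start of Slc16a3, and as the reverse complement at 226 to 222 and 52 to 48 before that of Hk2. So short a motif is common, and 2628 of 10652 windows (24.7%) held it, as did 17 of 29 windows of this list. Of those 17 genes 9 fell, and of the 12 without the core 5 fell.

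Slc16a3, the lactate exporter MCT4, read 9017, 7641 and 8025 in NTC replicates 1 to 3 and 4401, 3643 and 4610.1 in shA replicates 1 to 3, a log2 difference of -0.97 (SE 0.12, adjusted p = 0.00714) with all 6 libraries and -1.002 (adjusted p = 0.00692) without shA replicate 1. Hk2, which encodes hexokinase 2, read 3928, 3595 and 4117 in NTC and 2174, 2416 and 2384 in shA, with -0.74 [-0.69]. Slc2a1, the glucose transporter GLUT1, read 16282, 10829.8 and 10367 in NTC and 5708, 5289 and 4440.4 in shA, with -1.26 [-1.34], and Ero1l, an oxidase of protein folding, 4641, 3599 and 3303 in NTC and 1631, 2038 and 1747 in shA, with -1.08 [-1.01]. The groups were apart in all 4 genes, as in 24.6% of all genes tested, which had every shA library below every NTC library. Vegfa, the vascular growth factor, fell with -0.80 [-0.80], a call lost without NTC replicate 3 (adjusted p = 0.051). Ldha, lactate dehydrogenase A, missed the threshold with all 6 libraries (adjusted p = 0.0523) and passed without shA replicate 1 at -0.43. Car9, a carbonic anhydrase often used as a hypoxia marker, had overlapping groups, at 57.5, 48.2 and 41.3 in NTC and 64.3, 55.1 and 90.2 in shA. Slc16a3, Hk2, Slc2a1, Ero1l and Pfkl stayed called when any 1 library was left out. The falling count was 9 without NTC replicate 1 or 2, 7 without NTC replicate 3 and 10 without shA replicate 3.

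Of the feedback and target genes of the MAPK pathway, 6 passed as falling and most did not pass. Of 20 listed, 17 were tested, and 6 fell and 1 rose in both comparisons, where 8.83% of all genes fell, with medians of -0.24 and -0.25. Spry4, an inhibitor of receptor tyrosine kinase signalling, read 1442, 1365 and 1332 in NTC replicates 1 to 3 and 581, 596 and 643 in shA replicates 1 to 3, a log2 difference of -1.18 (SE 0.10, adjusted p = 0.00417) with all 6 libraries and -1.15 (adjusted p = 0.00433) without shA replicate 1. Etv4, an ETS transcription factor, read 1942, 1835 and 1761 in NTC and 695, 898 and 925 in shA, and Dusp6, a phosphatase of ERK, 3358, 3528 and 2431 in NTC and 1311, 1424 and 1732 in shA. Their log2 differences were -1.15 [-1.02] and -1.05 [-0.96], and in each gene the groups were apart. Spry2, another inhibitor of that family, fell with -1.32 [-1.26], while Spry1, Egr1 and Dusp5 did not pass. The riser was Il1rl1, the receptor for IL-33 that mast cells and regulatory T cells also carry, at 41.7, 30.1 and 41.3 in NTC and 303, 103 and 166 in shA, and its call did not hold without NTC replicate 2 (adjusted p = 0.0555).

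Wnt targets and regulators moved in both directions. Of 30 listed, 26 were tested, and 6 fell and 4 rose, with a median of -0.54, while without shA replicate 1, 10 fell and 4 rose, with -0.41. Over all genes tested 12% rose and 8.83% fell, so the rising count was near the share of all genes. Sox9, a transcription factor of crypt progenitors, read 113, 183 and 164 in NTC and 598, 907 and 1494 in shA, a log2 difference of 2.63 (SE 0.34, adjusted p = 0.0075) with all 6 libraries and 2.95 (adjusted p = 0.0058) without shA replicate 1. Tnfrsf19, a Wnt target receptor, read 7148, 7723 and 6635 in NTC and 3253, 4749 and 3991 in shA, with -0.86 [-0.72]. Sfrp1, a secreted Wnt inhibitor, read 3.38, 15.1 and 8.64 in NTC and 94.8, 92.5 and 61.5 in shA, with 3.32 [3.21]. Axin2, a feedback inhibitor, fell with -0.60 [-0.50] and Myc, a growth regulator, rose with 1.33 [1.51], and both calls were lost without any 1 NTC library (adjusted p up to 0.0584 and 0.0645). Apcdd1, a membrane inhibitor of Wnt, fell without shA replicate 1 at -0.60 and missed the threshold with it (adjusted p = 0.0539). Its shA replicate 1 was the lowest library, at 7568, against 17406 and 16794. The rising count was 2 without any 1 NTC library, and the falling count was 3 and 2 without NTC replicates 2 and 3 and 12 without shA replicate 2.

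Epithelial genes were expressed in both groups, as the carcinoma label implies. Cdh1, which encodes E-cadherin, read 12611, 13925 and 13779 in NTC and 18413, 18607 and 18059.9 in shA, Epcam 10895, 10023 and 8732 in NTC and 11195, 7132 and 8348 in shA and Krt8 7589.7, 5741 and 4608 in NTC and 12387, 5213 and 6327 in shA. The intestinal transcription factor Cdx2 was lowest in shA replicate 1, at 549.8, 309 and 245 in NTC and 19.6, 159.8 and 118 in shA, and Muc2, the mucin of goblet cells, was at most 28.3. Of 20 intestinal epithelial genes 16 were tested and 5 rose, by 0.45 [0.45] for Cdh1 to 1.65 [1.55] for Krt7, and 5 rose and 2 fell without shA replicate 1. Over all genes tested 12% rose and 8.83% fell, or 12.5% and 10.1% without shA replicate 1. Elf3, an epithelial transcription factor, and Cldn7, a tight junction claudin, stayed called when any 1 library was left out. Krt7 was lost without NTC replicate 1 or 3, and Cdh1 and Lgr5 without any 1 NTC library or shA replicate 3 (adjusted p up to 0.0607, 0.0669 and 0.115). The rising count was 2 without NTC replicate 1 or 3, and 3 without NTC replicate 2 or shA replicate 3.

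Stromal and vascular genes differed between shA replicate 1 and the rest of its group. Of 23 fibroblast and matrix genes, all tested, 9 rose and 1 fell, and 8 rose and 2 fell without shA replicate 1. Mmp2, a matrix protease, read 117, 158 and 157 in NTC and 489, 497 and 481 in shA, with 1.77 [1.77], and Dpt, a matrix protein of skin fibroblasts, 1.13, 16.1 and 1.92 in NTC and 293, 125 and 82.0 in shA, with 5.17 [4.66]. Only 2 of the list rose without NTC replicate 1 or without NTC replicate 3. Of 20 endothelial genes 1 rose and 0 fell, and 2 rose and 1 fell without shA replicate 1, with medians of 0.71 and 0.17. Over all genes tested 12% rose and 8.83% fell, or 12.5% and 10.1% without shA replicate 1, so the endothelial counts were no more than these shares. All 20 endothelial genes were higher in shA replicate 1 than in the mean of shA replicates 2 and 3. Pecam1, an endothelial adhesion molecule, read 859.6, 699.6 and 619 in NTC and 4193, 963 and 871 in shA, and Vwf, von Willebrand factor, 653, 725 and 618 in NTC and 2760.2, 739 and 835 in shA. Replicates 2 and 3 of shA were near NTC for both genes, and replicate 1 was over 3 times any other library. The riser with all 6 libraries, Eng, a co-receptor for TGF-beta, had a log2 difference of 1.25 [0.94] and was lost without any 1 NTC library (adjusted p up to 0.0707). Of 10 pericyte and smooth muscle genes tested, 0 passed with all 6 libraries, and Kcnj8 and Abcc9 fell without shA replicate 1, at -1.99 and -1.58. Of 15 skeletal muscle genes tested, 2 were higher in shA replicate 1 than in the mean of shA replicates 2 and 3. Myh4, a fast myosin, read 0, 23.1 and 0 in NTC and 9.80, 261 and 105 in shA. Of 15 muscle genes tested 1 rose and 1 fell, no more than the shares over all genes, and 5 rose without shA replicate 1. The riser Tnnt3 and the faller Tnnt1, both troponin T genes, each lost the call without any 1 NTC library or shA replicate 2. Tnnt3 also lost it without shA replicate 3, and Tnnt1 without shA replicate 1. Haemoglobin and other red blood cell genes, 6 tested, passed in neither comparison, with medians of -2.95 and -3.50. Without NTC replicate 3, 1 fell, and without both first replicates 5 fell. Hbb-bs, a beta globin with a near-identical copy, read 35335, 3815 and 2009 in NTC and 1148, 786 and 284 in shA, so NTC replicate 1 stood far above the other 5 libraries.

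A set of genes was far higher in shA replicate 1 than in any other library. In this library 130 genes were at least 4-fold above the highest of the other 5 libraries, at 100 normalized reads or more, and 8 were at least 4-fold below the lowest of them. The same count upwards was 6 in NTC replicate 1 and in shA replicate 3 and 0 in the other 3, and downwards it was 36 in NTC replicate 1 and 0 in the other 4. Genes of B cells were among the highest. Cd79a, a chain of the B cell receptor complex, read 32.7, 22.1 and 36.5 in NTC replicates 1 to 3 and 991, 18.7 and 33.6 in shA replicates 1 to 3, and Cd79b, the other chain, 20.3, 41.2 and 47.0 in NTC and 639, 31.8 and 42.6 in shA. Ms4a1, which encodes CD20, read 2.25, 5.02 and 4.80 in NTC and 328, 9.35 and 9.02 in shA, and Pax5, the B cell transcription factor, 6.76, 4.02 and 8.64 in NTC and 345, 0 and 4.10 in shA, and neither was tested, since 1 library alone exceeded 20. Of 14 B and plasma cell genes 5 were tested, and Cd22 and Jchain rose with all 6 libraries and not without shA replicate 1 (adjusted p = 0.0734 and 0.0664). Both were also lost without NTC replicate 2, shA replicate 2 or shA replicate 3, while 2 rose without NTC replicate 1 or 3. Gata3, a transcription factor of T helper and innate lymphoid cells, read 3.38, 5.02 and 10.6 in NTC and 646, 50.5 and 32.0 in shA. Gata3 also rose without shA replicate 1, at 2.72 (adjusted p = 0.0272), since replicates 2 and 3 were above NTC as well, and was lost without any 1 NTC library or shA replicate 2 (up to 0.121). Clu, the chaperone clusterin, read 141, 124 and 111 in NTC and 2122, 134 and 138 in shA, Rasgrp2, a guanine exchange factor of platelets and lymphocytes, 25.9, 19.1 and 11.5 in NTC and 452, 21.5 and 26.2 in shA, and Fcrls, an Fc receptor-like gene of myeloid cells, 21.4, 31.1 and 19.2 in NTC and 415, 34.6 and 32.8 in shA. These genes were chosen for this pattern, so their values are a description.

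Mitochondrially encoded genes were also far higher in this library. All 14 tested were higher in shA replicate 1 than in shA replicates 2 and 3, by a median of 3.13 on the log2 scale, while the median over all genes was -0.02. mt-Nd6, a subunit of complex I, read 1564, 799 and 1675 in NTC and 66439.5, 4612 and 4642 in shA, and mt-Cytb, a subunit of complex III, 20879.8, 10134 and 17769 in NTC and 239823, 28697 and 30892 in shA. mt-Nd6 is read from the opposite strand to its neighbour mt-Nd5, and since the strand setting of the counting is not given, reads of the pair cannot be told apart. With all 6 libraries 0 of the 14 passed in limma or with edgeR on the recovered reads other than mt-Nd6, which edgeR called (adjusted p = 0.0407), and without shA replicate 1, 4 rose. The genes lowest in shA replicate 1 included Wnt6, a Wnt ligand, at 242, 132 and 122 in NTC and 16.3, 174 and 159 in shA, and Igf2bp3, an oncofetal RNA-binding protein, at 133, 209.8 and 143 in NTC and 16.3, 221 and 120.5 in shA. In Mogat2, Cdx2, Nefm, Pdpr, Zc3h11a and Irs1 the ratio of shA replicate 1 to the next lowest library was 0.155 to 0.263.

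**Figure D4:**
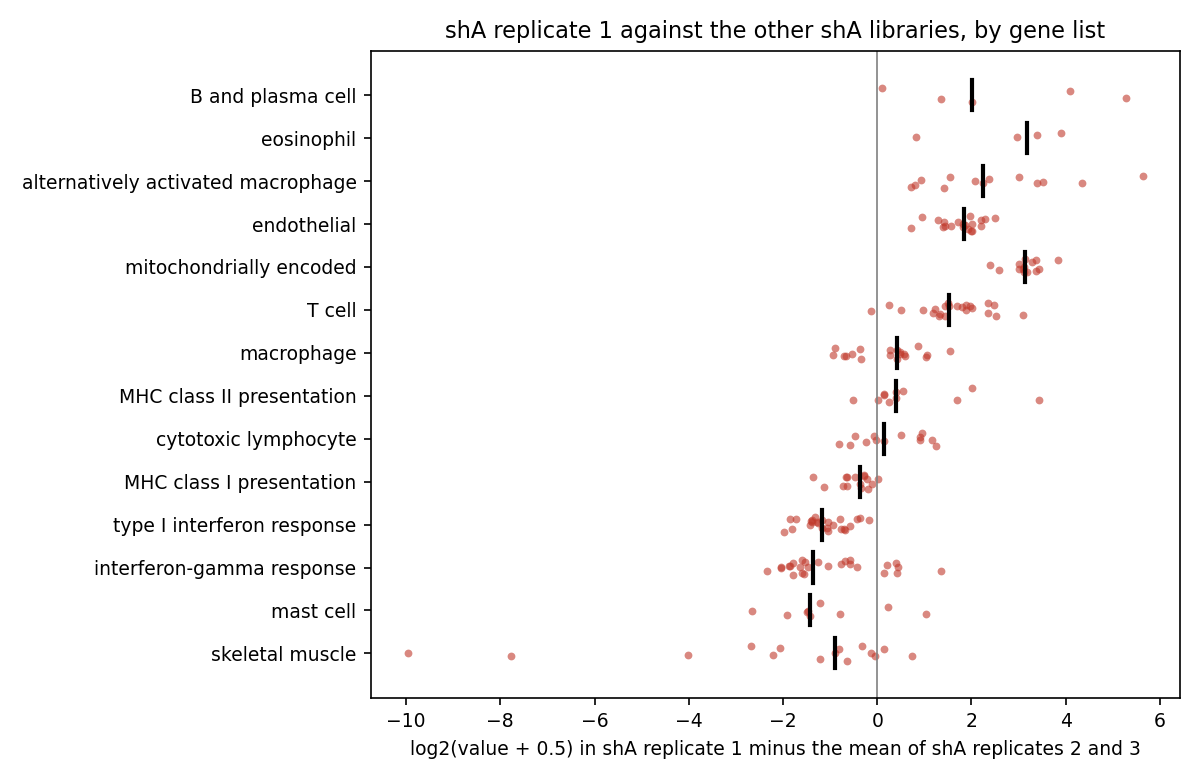
For each tested gene of 14 lists, log2(value + 0.5) in shA replicate 1 minus the mean of shA replicates 2 and 3, with the list median as a black bar. The medians run from 3.18 for eosinophil genes and 3.13 for mitochondrially encoded genes to -1.16 for the type I interferon response, where all 25 genes lie below 0, and -1.42 for mast cell genes.

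Leaving out shA replicate 1 added calls for interferon-linked genes among others. The genes with the largest change called only without it were Myh4, Myh1, Gbp10, H60c, Dpyd, Klra2, Oasl2 and Havcr2. Oasl2, an interferon-induced antiviral protein, read 115, 724 and 975 in NTC and 1074, 3912 and 4538 in shA, with 3.28 (adjusted p = 0.0355). Havcr2, the inhibitory receptor TIM-3, read 10.1, 24.1 and 72.0 in NTC and 77.3, 246 and 181 in shA, with 2.99 (adjusted p = 0.0333). In both genes shA replicate 1 was the lowest of its group and just above the highest NTC library. Among those that fell only without it were Dkk4, a secreted Wnt inhibitor, at 175, 151 and 174 in NTC and 0, 48.6 and 9.02 in shA, and Ednrb, an endothelin receptor, at 122, 85.3 and 65.3 in NTC and 62.1, 35.5 and 23.8 in shA. Dkk4 was listed at 0 in shA replicate 1, the direction of the other 2, so there the added spread and not the direction separated the comparisons. Egr4, Kcnj8, Serp2, Cacng7, Adam22 and Abcc9 made up the rest.

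The remaining lists are read against the 12% of all genes that rose and the 8.83% that fell, and several lay near these shares. Of 30 proliferation genes 1 rose and 0 fell, and 2 rose and 1 fell without shA replicate 1. Mki67, a proliferation marker, read 5899.8, 5777 and 6340.0 in NTC and 4629, 5311 and 4544 in shA (adjusted p = 0.0556). Of 22 integrated stress response genes tested 3 rose and 2 fell in both comparisons. Of 24 cholesterol synthesis genes 2 rose and 3 fell, and 2 and 2 without shA replicate 1. Of 19 NRF2 targets 2 rose and 2 fell, and 3 and 1 without it. Of 90 nuclear oxidative phosphorylation genes tested 13 rose and 0 fell, and 13 and 1 without shA replicate 1, with medians of 0.34 and 0.23, which is close to the share over all genes. The 13 became 1 without NTC replicate 1, 0 without NTC replicate 2, 4 without NTC replicate 3, 20 without shA replicate 2 and 3 without shA replicate 3. Of 82 cytosolic ribosomal protein genes 1 rose, and 2 without shA replicate 1. Without any 1 NTC library 0 proliferation, 0 ribosomal and 0 rising cholesterol genes were called. Of 19 heat shock genes 6 rose in both comparisons, and of 22 immediate early genes 6 rose, and 5 without shA replicate 1, while 2 or fewer in each rose without any 1 NTC library. Fth1, the ferritin heavy chain, read 12693, 13789 and 14291 in NTC and 23559, 25597 and 22808 in shA, with 0.82 [0.83], and Cebpb, a transcription factor of myeloid cells, 202, 306 and 288 in NTC and 1394, 859 and 841 in shA, with 1.94 [1.70]. Of 5 adipocyte genes tested 4 rose, and 3 without shA replicate 1. Of 7 Schwann cell genes 1 rose and 1 fell, and 0 of 3 keratinocyte genes passed, in both comparisons. The adipocyte risers included Lpl and Pnpla2, lipases that macrophages also make, at 1.67 [1.29] and 0.79 [0.74], and 1 to 3 rose when any 1 library was left out.

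Tumours with shRNA B were set against the same NTC libraries, so both comparisons share their controls. Gad1 differed from NTC by -3.51 with shA and -3.35 with shB on the log2 scale. C3 differed by 5.17 and 4.90, H2-Ab1 by 4.37 and 4.04, Icos by 4.40 and 4.46, and Slc2a1 by -1.26 and -1.85. Sox9 rose by 2.63 with shA against a difference of 4.04 with shB. The difference between the shRNAs was tested over all 9 libraries and 14600 genes, and limma called 0 genes (0.0%), with 1010 at an unadjusted p under 0.05 (6.92%) and a lowest adjusted p of 0.680. A p that misses the threshold does not show that the shRNAs act alike. Cd79a averaged 19.6 and Clu 140 normalized reads over the shB libraries, near the levels of shA replicates 2 and 3.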

How the data were processed

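RNA of MC38 tumours was sequenced on an Illumina NovaSeq after NEBNext Ultra library preparation, per the labels' protocols. Each deposited file gives 1 signal value per gene symbol. Cuffdiff 2.2.1 and the build mm9 are named in the submitters' processing notes without a role, while neither aligner, counter, strand setting nor annotation is given in the sources used here. All deposited signal values above 0 were whole multiples of the smallest one in their library within a tolerance of 0.001, so read counts (100% whole) were recovered, while the unit planned for was a normalized value of unknown scaling.

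The main fit was limma 3.58.1 in R 4.3.3, with a trended prior, on log2(value + 0.5) over genes at 20 or more in at least 3 of the 6 libraries, with Benjamini-Hochberg adjustment over 14114 genes and a threshold of 0.05. Groups came from the sample titles. The quasi-likelihood test of edgeR 4.0.16 and DESeq2 1.42.0 ran on the recovered reads as alternatives, beside other pseudocounts, filters, scalings, priors and weights, a replicate block, and each library left out. Replicates differed by more than sampling noise (chi-square over its degrees of freedom 7.81 or more), so each library counted as 1 sample. The fit was tested on simulated data. Intervals from counting were not needed, since spread between libraries was larger, and the precision is that of 3 libraries a group.

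The comparison and the 40 gene lists were chosen with earlier results of these data known. Genes named by rule were Gad1, the 12 rising and the 12 falling genes of largest change called with and without shA replicate 1 (mean of at least 40, groups apart), the 8 in each direction called only without it, the 12 highest and 8 lowest in it relative to all other libraries, and, per list, the 5 or fewer members of smallest p. Predicted genes and antigen receptor segments were left out of all but the list part. Other genes named were chosen after their values were seen, and a few genes are not reported here. Promoter windows came from RefSeq (GRCm38.p6) by symbol, with 10652 of 14114 tested genes matched. For close copies (MHC, globin, ribosomal and Ear genes) the counting could split reads.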

Additional observations from a re-analysis of the deposited data

How the results depend on the processing

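With all 6 libraries 2937 genes were called, 1691 rising and 1246 falling. Totals were 1936 with no trend in the prior and 6664 with array weights, where 3358 rose and 3306 fell. Array weights gave shA replicate 1 a weight of 0.159 against up to 3.64 for another library. Falling genes numbered 711 with no trend, 818 with all 9 libraries in the fit and 798 with the replicate block, under which 1354 rose. Same-numbered libraries correlated in their deviations from the group mean at 0.0035 to 0.0314, and differently numbered ones at -0.0516 to 0.0512. With 3 libraries a group these values cannot exclude a pairing or shared batch, which the sources used here do not state. Leaving out 1 library in turn gave totals of 1096 to 3190, with 812 to 1761 rising and 284 to 1429 falling. Rising genes were 57.6% of calls with all 6 libraries, 50.4% with array weights and 71.8% to 74.4% without 1 NTC library. Other pseudocounts, filters, scalings and a robust prior gave 1337 to 1790 rising and 1107 to 1296 falling genes. The edgeR test called 1763 and 1058, and DESeq2 2423 and 1813. Without both first replicates 1956 rose and 1461 fell. Gad1 passed under every alternative run, at -4.01 to -2.72 on the log2 scale. The test of shA against shB, with 0 genes, gave 0 to 1 when 1 shA or shB library was left out, the 1 without shA replicate 3. The causes of these shifts were not tested. Fits that left out a library also had fewer libraries, and the part of that in the shifts was not tested either.

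Of 175 called genes among the 265 named or listed as checks, 800 of 1032 tests that left out 1 library and 2614 of 2721 others kept direction and call, and the rest kept direction alone. Genes that changed sign had no call with all 6 libraries. Without shA replicate 1 the log2 difference was -0.24 for Cd79a, -0.18 for Dsc3, -0.33 for Fabp4 and -0.028 for Krt8, the lowest values when 1 library was left out for Cd79a, Dsc3, Fabp4 and Krt8, whose highest were 2.60, 1.01, 1.42 and 0.60. Without both first replicates it was -0.18 for Cd79a, -0.25 for Cd79b and -0.46 for Dsc3. Dsc3 gave -0.03 without NTC replicate 1 and -0.08 without shA replicate 3, Gad2 from -0.84 to 0.059 (the latter without shA replicate 2), and Mbp from -0.21 to 0.0034 (the latter without shA replicate 3). With array weights Sdc1 gave -0.044, Fabp4 -0.18, Cdh5 -0.019 and Gad2 0.47. In 2 alternatives chosen after seeing the data, shA replicate 1 was left out and edgeR or array weights were used. With edgeR 2053 rose and 1246 fell, and Cd79a gave -0.18, S100a9 0.14, Fabp4 -0.43, Gad2 0.25 and Krt8 -0.027. With array weights 1988 rose and 1759 fell, and Cd79a gave -0.10, Cd79b -0.13, Dsc3 -0.42 and Fabp4 -0.16.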
